A study of Mus musculus with 4 samples.

Results

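The levels of 10 genes, Ccna2, Exosc9, Mki67, Top2a, Pcna, Mcm3, Mcm5, Cdk4, Cdk1 and Rrm2, were followed in RNA sequencing libraries of mouse T-helper 2 (Th2) cells, out of 50600 genes in the count tables. The genes were picked by name: 9 act in the cell division cycle, and Exosc9 was taken with Ccna2, whose exons it overlaps on the other strand. For each of them, the count per kb of exon on its own strand was set beside that of any gene whose exons overlap it on the opposite strand. The study holds 4 libraries of 1 group, primary Th2 cells of the strain C57BL/6NJ, numbered as biological replicates 1 to 4, with no other cell type, treatment or control. The labels give every replicate its own biosample but 1 shared donor, no sex and an unknown age. They point to a document on differentiating CD4 T cells in culture, and a time of 72 h, with no stated starting point, stands in the file headers. The assay is called total RNA sequencing, whereas the title of the linked library protocol names poly(A)+ RNA. Because separate animals or cultures are not stated, the p-values below measure only the spread between these libraries, which may be technical.

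The libraries held 2388255, 5016, 1929880 and 1713199 counts in replicates 1 to 4, so replicates 1, 3 and 4 were used. In replicate 2 a floor of 3 counts equals 598 CPM (the count scaled to the library's total), against 1.26 to 1.75 CPM in the others, and each of the 10 genes had 0 to 4 counts there. Fragments were counted only on the strand on which the gene is annotated (strand setting 1 of the counting program), and the sources used here do not state how read 1 is oriented to the RNA. Genes with exons overlapping an exon on the other strand were 8189 of the 50600 (16.2%) and held 90.7%, 94.2% and 91.3% of all counts in replicates 1, 3 and 4. Of the mitochondrial genes, mt-Nd6, the light-strand gene of a respiratory chain subunit, had 35726, 29407 and 27979 counts, while mt-Co1, a heavy-strand gene of cytochrome oxidase, had 805, 362 and 1103. The 9 mitochondrial genes on the minus strand, of 37, held 83.6%, 83% and 77.7% of the mitochondrial counts, with 6.92% of the length. A count below is therefore a statement about the annotated strand of a gene. Whether it came from that gene's RNA or from RNA of its neighbour on the other strand was not tested.

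A resting T cell that meets its antigen enters the cell cycle and divides rapidly, and cultures of differentiating helper cells hold many cells in cycle. Cyclin D with Cdk4 opens the way from G1 to S phase, the E2F factors then switch on genes for DNA replication, and cyclin A2 and Cdk1 carry cells through S phase and G2 into mitosis. The RNA exosome, to which Exosc9 belongs, trims and degrades RNA from its 3′ end and is not a regulator of the cycle.

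Ccna2 and its neighbour Exosc9 both had high counts on their annotated strands, and Exosc9 had more counts per kb than Ccna2 in each library. Ccna2 encodes cyclin A2, the cyclin of S phase and G2. It lies on the minus strand of chromosome 3 at 36564865 to 36572150 (mm10), with 4083 bp of exons. It had 937, 788 and 649 counts in replicates 1, 3 and 4, which is 229, 193 and 159 counts per kb. As TPM (counts per kb scaled to the same sum in each library), Ccna2 stood at 137, 141 and 134, or 137 ± 3.39 TPM (SD, n = 3). The 3 libraries lay close together, with a coefficient of variation (CV, the SD over the mean) of 2.47%.

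Exosc9 encodes a core subunit of the exosome ring and lies on the plus strand of chromosome 3 at 36552606 to 36565727, with 4709 bp of exons. It had 2593, 2064 and 1776 counts, or 551, 438 and 377 counts per kb, and stood at 323 ± 6.20 TPM (SD, n = 3). The genes are convergent: their 3′ ends run into each other and share a segment of 510 bp at chr3:36565218-36565727. That segment is 10.8% of the exonic length of Exosc9 and 12.5% of that of Ccna2. In the GENCODE vM21 annotation it is 3′ untranslated in Ccna2 throughout, and in Exosc9 it holds 156 bp of coding sequence and 354 bp of untranslated sequence.

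Per kb, Exosc9 exceeded Ccna2 2.40-fold in replicate 1 (exact 95% interval 2.23 to 2.59), 2.27-fold in replicate 3 (2.09 to 2.47) and 2.37-fold in replicate 4 (2.17 to 2.60). These intervals overlap one another, cover counting error only, and all lie above 1. Over the 3 libraries together the ratio was 2.35 (2.24 to 2.46). In edgeR's quasi-likelihood test with a term for the library, fitted over all overlapping pairs, the difference was 1.23 on the log2 scale (SE 0.20, adjusted p = 5.12e-04). Both strands of the locus thus had counts in every library, and the ratio moved little from library to library.

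Cdk4, the cyclin D-dependent kinase of G1, had the highest annotated-strand level of the 10 genes. It was the only other one with exons on the opposite strand. It lies on the plus strand of chromosome 10 at 127063534 to 127067920, with 3249 bp of exons, and had 3699, 3219 and 2886 counts. Per kb this is 1138.5, 991 and 888 counts, and as a level 682, 723 and 749 TPM (718 ± 34.1, SD, n = 3, CV 4.75%). Its convergent neighbour Tspan31 encodes a tetraspanin membrane protein. Tspan31 lies on the minus strand at 127067280 to 127070264, and had 75, 74 and 77 counts, or 34.2, 33.7 and 35.1 counts per kb. The 3′ ends share 641 bp at chr10:127067280-127067920, untranslated in both genes in vM21, which is 19.7% of the exons of Cdk4 and 29.2% of those of Tspan31.

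Cdk4 was thus far above its neighbour in every library, 33.3-fold per kb in replicate 1 (26.5 to 42.4), 29.4-fold in replicate 3 (23.3 to 37.5) and 25.3-fold in replicate 4 (20.2 to 32.2). The pooled ratio was 29.3 (25.7 to 33.6), and the fitted difference was 4.86 on the log2 scale (SE 0.25, adjusted p = 5.18e-07, edgeR's quasi-likelihood test). Of all 3355 pairs with 10 or more counts, 88.2% were called different, so a call alone says little about these pairs. By size, 11.4% of the pairs differed less than Exosc9 and Ccna2 did, and 47.5% differed less than Cdk4 and Tspan31. The median size over all pairs was 5.06 on the log2 scale.

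**Figure D1:**
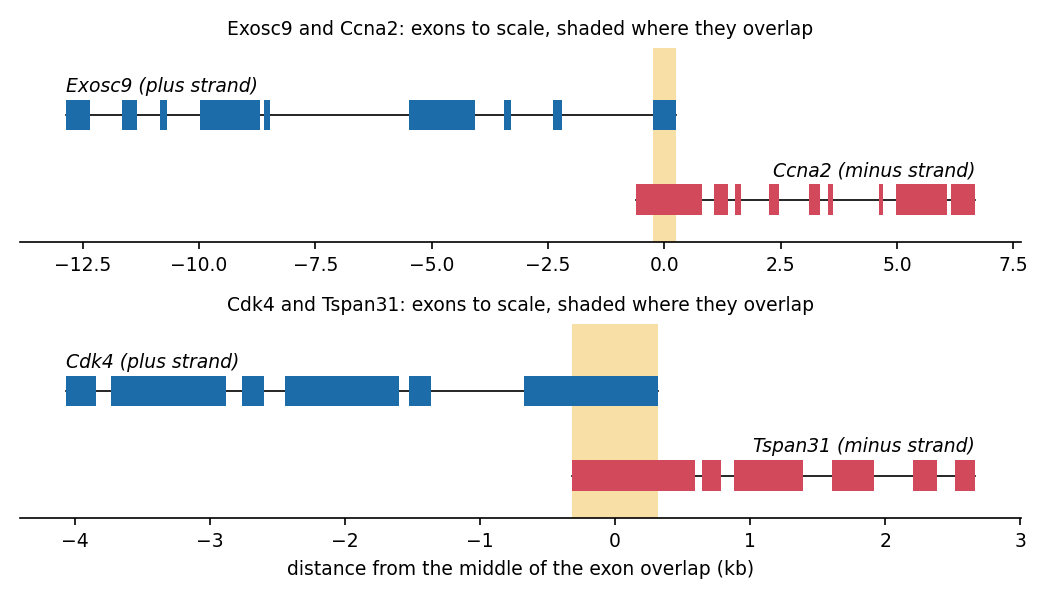
Exons of Exosc9 and Ccna2 (top) and of Cdk4 and Tspan31 (bottom), drawn to scale against the distance from the middle of the shared segment in kb, with plus-strand genes in blue, minus-strand genes in red and the shared segment shaded. In both pairs the last exons run into each other, over 510 bp and 641 bp.

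The other 7 genes had no exon of another gene on their opposite strand, and all of them stood lower than the 3 genes above. Mki67, the gene of the proliferation marker Ki-67, a coat protein of mitotic chromosomes, had 258, 83 and 176 counts in replicates 1, 3 and 4, or 25.6, 8.25 and 17.5 counts per kb of its 10061 bp of exons (chromosome 7, 135689784 to 135716361). Its level was 15.4, 6.02 and 14.8 TPM, lowest in replicate 3. Top2a encodes topoisomerase II alpha, which untangles replicated DNA. It had 171, 39 and 135 counts over 9013 bp (chromosome 11, 98992943 to 99024189), or 11.4, 3.16 and 12.6 TPM, with the same library lowest.

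Of the genes for replication, Pcna encodes the sliding clamp of DNA polymerases. It had 85, 32 and 73 counts over 2400 bp (chromosome 2, 132249162 to 132253314), and stood at 21.2, 9.73 and 25.7 TPM. Mcm3 and Mcm5 encode subunits of the MCM2-7 helicase that opens DNA at origins. Mcm3 had 85, 8 and 53 counts over 3752 bp (chromosome 1, 20802968 to 20820312), or 13.6, 1.56 and 11.9 TPM. Mcm5 had 48, 13 and 32 counts over 3993 bp (chromosome 8, 75109569 to 75128439), or 7.20, 2.38 and 6.76 TPM. In all 3 genes replicate 3 lay below both other libraries, and the gap was widest for Mcm3.

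Rrm2, the small subunit of ribonucleotide reductase, which supplies deoxynucleotides, had 54, 29 and 56 counts over 2771 bp (chromosome 12, 24708241 to 24714146), or 11.7, 7.64 and 17.0 TPM. Cdk1, the kinase that starts mitosis, had 24, 10 and 22 counts over 4934 bp (chromosome 10, 69335146 to 69352938), or 2.91, 1.48 and 3.76 TPM. Cdk1 was the lowest of the 10 genes by its mean, at 2.72 ± 1.15 TPM (SD, n = 3). The CV of the 7 genes ran from 39.0% (Rrm2) to 72.2% (Mcm3), against 1.92% to 4.75% in Exosc9, Ccna2 and Cdk4. Depth differed too, with 8 to 258 counts per library in the 7 genes and 649 to 3699 in the others, so counting error was unlike. Tspan31, with opposite-strand exons and 74 to 77 counts, had a CV of 18.4%.

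Ordered by mean level on the annotated strand, Cdk4 was 2.23 times Exosc9, and Exosc9 was 2.35 times Ccna2. Ccna2 was 7.29 times the next gene, Pcna, and the ranges of neighbours did not overlap in any of these steps. Below them came Pcna (18.9 ± 8.22 TPM), Rrm2 (12.1 ± 4.72), Mki67 (12.0 ± 5.22), Top2a (9.05 ± 5.14), Mcm3 (9.01 ± 6.51), Mcm5 (5.44 ± 2.67) and Cdk1 (SD, n = 3 each). In this stretch the ranges of every pair of neighbours overlapped, so that order is not separated by the spread of the libraries. Together, Cdk4, Exosc9 and Ccna2 held 90.89% of the 7954 counts of the 10 genes in replicate 1 (Wilson 95% interval 90.23 to 91.5), 96.6% of 6285 in replicate 3 (96.12 to 97.02) and 90.66% of 5858 in replicate 4 (89.89 to 91.38).

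**Figure D2:**
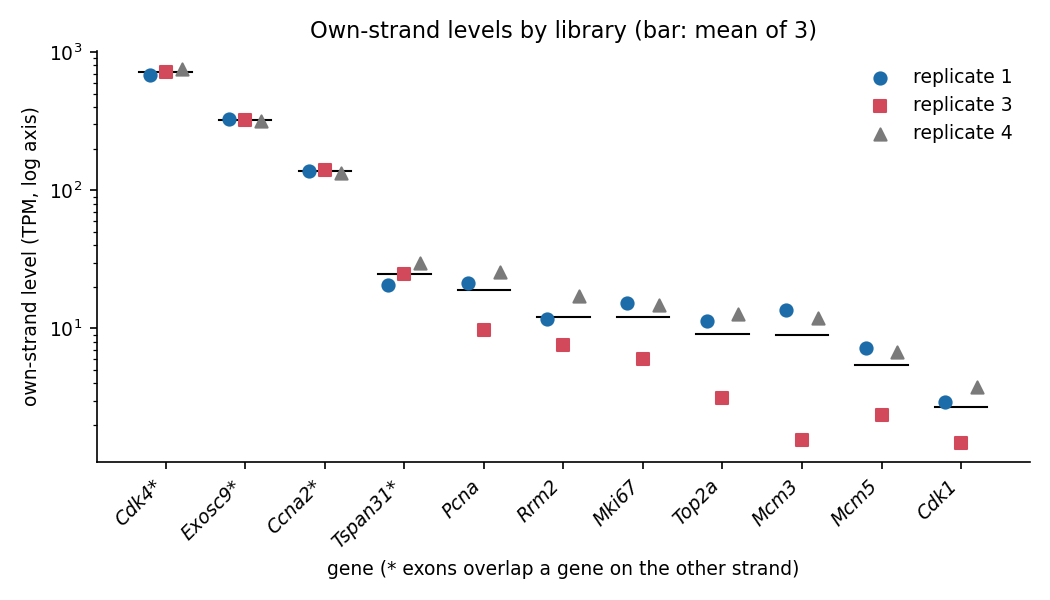
Own-strand level in TPM (log axis) of the 10 genes and of Tspan31, ordered by mean, with 1 point per library and a bar at the mean of replicates 1, 3 and 4. Of the starred genes, whose exons overlap a gene on the other strand, Cdk4, Exosc9 and Ccna2 have their 3 points close together, and in the genes with no star replicate 3 is the lowest point.

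All 10 genes lay above 1 TPM, a level set here as a reference because the study has no control group. The test was a quasi-likelihood F test of the intercept in edgeR, and 22.8% of the 17380 genes tested were above 1 TPM and 54.1% below. The largest adjusted p among the 10 was that of Cdk1, at 5.45e-04. With limma on log2(TPM + 0.1) in place of edgeR, Mcm3 was no longer called (adjusted p = 0.0544). Cdk1 was not called without replicate 1 (adjusted p = 0.0658) or without replicate 4 (0.112) in edgeR, and 5 of 6 and 6 of 7 genes that still passed the filter were called in these, against 7 of 7 without replicate 3.

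Replicate 3 had lower counts than replicates 1 and 4 for several of these genes, led by Mcm3 and Top2a, which kept their call under every alternative run, whereas Mki67, Pcna and Mcm5 lost it under at least 1. In edgeR's quasi-likelihood test with TMM scaling, 5 were called lower in replicate 3, against 12.4% of the 6922 genes tested that were lower and 2.79% that were higher. They were Mcm3, which fell by 2.86 on the log2 scale (SE 0.51, adjusted p = 2.79e-06), Top2a by 1.76 (SE 0.33, 9.57e-06), Mki67 by 1.16 (SE 0.26, 4.93e-04), Mcm5 by 1.39 (SE 0.52, 0.0495) and Pcna by 1.09 (SE 0.37, 0.0264). In TPM, the mean of replicates 1 and 4 exceeded replicate 3 by 8.19-fold for Mcm3, 3.80-fold for Top2a, 2.94-fold for Mcm5, 2.50-fold for Mki67 and 2.41-fold for Pcna. In such bulk RNA fewer cells in cycle, less RNA per cell and a technical difference of the library cannot be told apart, and none was tested. The 3060 tested genes without opposite-strand exons had a median of -0.82 in the same comparison. The comparison is between libraries of 1 group and not between conditions, and the fit gives the single library the spread of the other 2.

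Cdk1 and Rrm2 were also lowest in replicate 3 but did not pass the test, with log2 differences of -0.98 (SE 0.58, adjusted p = 0.245) and -0.72 (SE 0.40, adjusted p = 0.211). Ccna2, Exosc9 and Cdk4 were not called either, at 0.22 (SE 0.15, adjusted p = 0.325), 0.15 (SE 0.12, 0.419) and 0.18 (SE 0.11, 0.255). All 7 genes without opposite-strand exons had their lowest level in replicate 3, and 0 of the 3 genes with them did. The same split ran through the whole table. Of the 3060 tested genes without opposite-strand exons 22% were lower in replicate 3 and 0.817% higher, with a median of -0.82, and of the 3862 genes with them 4.82% were lower and 4.35% higher, with a median of 0.12.

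The calls in replicate 3 changed with the scaling. When the TMM factors were taken from genes without opposite-strand exons alone, the median of all genes moved by 0.84 on the log2 scale, and 1.7% of genes were lower and 40.6% higher. Relative to that scale Mcm3 (-2.02, adjusted p = 0.00228) and Top2a (-0.92, 0.0222) remained lower, whereas Mki67 (-0.32, 0.321), Mcm5 (-0.55, 0.405) and Pcna (-0.26, 0.604) were not called. Ccna2 (1.06, 4.95e-06), Exosc9 (0.98, 1.12e-06) and Cdk4 (1.02, 5.92e-07) were then higher in replicate 3. Mcm3 had the lowest log2 difference of the 10 under both scalings. DESeq2's Wald test called Mcm3 and Top2a (adjusted p = 0.0377 each) of the 8 genes it gave an adjusted p, which Mcm5 and Cdk1 lacked.

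**Figure D3:**
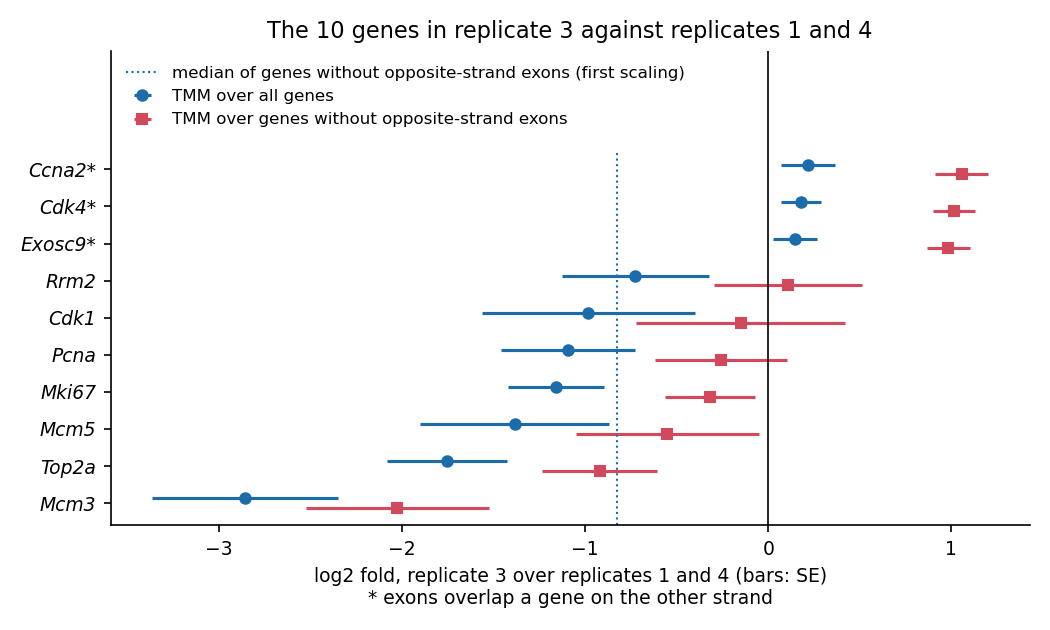
Log2 fold of replicate 3 over replicates 1 and 4 for each of the 10 genes, with bars of 1 SE, under TMM scaling over all genes (blue circles) and over genes without opposite-strand exons (red squares), and the median of the latter genes under the first scaling as a dotted line at -0.82. Mcm3 and Top2a lie left of 0 under both scalings, and the starred genes lie near 0 under the first and near 1 under the second.

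Markers of the labelled cell type were counted and moved with replicate 3 as well. The 8 T cell markers summed to 133.7, 47.1 and 146.1 TPM in replicates 1, 3 and 4. In edgeR under TMM scaling over all genes, 6 of 8 were lower in replicate 3. Of all genes tested 12.4% were lower there, and 22% of those without opposite-strand exons, the class of 7 of the 8. Under DESeq2 size factors 2 of the 8 were lower, where 379 of all 6922 genes tested were. With the second scaling 0 were lower, where 1.7% of all genes were. In DESeq2's Wald test 0 of the 4 with an adjusted p were called. Those of Th2 cells (7 genes) summed to 190.0, 106.8 and 189.4 TPM, with Il13, Gata3 and Ccr4 lower among 6 tested and Il4 not called (0.57, adjusted p = 0.212, edgeR). With the second scaling Il13 was lower and Il4 and Ptgdr2 were higher, where 1.7% of all genes were lower and 40.6% higher. B cell markers summed to 2.05, 5.51 and 9.84 TPM, all of it Cd79a (5, 11 and 17 counts), which has no opposite-strand exons. Cd79b, Ms4a1 and Pax5 were at 0 counts. Erythroid markers summed to 2.35, 0.954 and 0.551 TPM, all of it Klf1 (6, 2 and 1 counts), with Hbb-bs and Hba-a1 at 0. Myeloid markers summed to 133.7, 136.0 and 152.2 TPM, almost all of it Csf1r, whose exons overlap Hmgxb3, and Adgre1, Itgam, S100a8 and S100a9 were at 0. Their part in the lower counts of replicate 3 was not tested.

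For replicates 1 and 4, 0 of the 10 genes were called in edgeR or DESeq2, and 0 had an unadjusted p under 0.05 in either library. Each of these tests sets 1 library against a pair that holds replicate 3, which widens the spread (Mcm3 in replicate 1 was 0.98 with an SE of 0.74), so they say little about whether these libraries differ. Over all genes tested, 0.0289% of genes were higher in replicate 1 and 0% lower, and 0.0144% were higher in replicate 4 and 0.0289% lower.

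Promoters of 8 of the 10 genes were found in RefSeq (build GRCm38.p6), as the 250 bases before and 50 after the start of the gene; those of Ccna2 and Exosc9 were not in the table used. They were searched on both strands for words that recur in promoters of cell cycle genes. The words were the CCAAT box (CCAAT), E2F words (TTTCCCGC, TTTCGCGC, TTTGCCGC and TTTGGCGC), words of the cell cycle genes homology region or CHR (TTTGAA and TTCGAA) and the E-box (CACGTG). Shown are the 3 genes with the smallest adjusted p in replicate 3 and, for contrast, Cdk4, each 5′ to 3′ on the strand of the gene with every match in capitals. They lie at chr11:99024140-99024439 (Top2a, minus strand), chr1:20820263-20820562 (Mcm3, minus strand), chr7:135716330-135716629 (Mki67, minus strand) and chr10:127063285-127063584 (Cdk4, plus strand).
Top2a: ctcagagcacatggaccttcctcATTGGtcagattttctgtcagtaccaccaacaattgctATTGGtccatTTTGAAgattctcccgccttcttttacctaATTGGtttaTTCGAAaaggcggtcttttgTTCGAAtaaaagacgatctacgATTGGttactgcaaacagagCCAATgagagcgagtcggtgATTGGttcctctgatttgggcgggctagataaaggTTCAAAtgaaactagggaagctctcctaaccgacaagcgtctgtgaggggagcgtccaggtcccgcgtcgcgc
Mcm3: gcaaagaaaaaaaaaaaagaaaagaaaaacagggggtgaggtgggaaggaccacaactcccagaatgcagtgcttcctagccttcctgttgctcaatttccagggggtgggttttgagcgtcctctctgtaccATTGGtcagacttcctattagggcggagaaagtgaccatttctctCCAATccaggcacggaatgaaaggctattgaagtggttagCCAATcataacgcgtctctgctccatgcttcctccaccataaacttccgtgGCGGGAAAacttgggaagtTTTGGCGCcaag
Mki67: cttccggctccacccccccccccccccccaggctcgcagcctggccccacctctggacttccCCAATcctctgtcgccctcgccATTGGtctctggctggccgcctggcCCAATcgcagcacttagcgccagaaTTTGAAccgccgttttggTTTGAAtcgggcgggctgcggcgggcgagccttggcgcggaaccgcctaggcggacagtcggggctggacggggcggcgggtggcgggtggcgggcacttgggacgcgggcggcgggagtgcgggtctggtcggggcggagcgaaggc
Cdk4: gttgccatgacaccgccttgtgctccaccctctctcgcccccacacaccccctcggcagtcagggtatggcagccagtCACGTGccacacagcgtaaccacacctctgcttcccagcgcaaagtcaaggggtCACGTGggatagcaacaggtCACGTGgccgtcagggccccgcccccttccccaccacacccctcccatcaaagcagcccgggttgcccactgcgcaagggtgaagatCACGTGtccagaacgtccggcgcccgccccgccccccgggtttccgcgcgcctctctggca

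The Top2a promoter held 6 CCAAT boxes and 4 CHR words, Mki67 held 3 and 2, and Mcm3 held 3 CCAAT boxes and 2 E2F words. Cdk4 had 4 E-boxes and no match to the other words. Among all 32851 promoters of this length, 37.4% held a CCAAT box and 3.37% held 3 or more, 2.26% held an E2F word, 19.2% a CHR word and 7.15% an E-box. Having 4 or more CHR words, as in Top2a, or 4 or more E-boxes, as in Cdk4, was found in 0.0244% of promoters each. A CCAAT box was in 7 of the 8 promoters, an E2F word in 3 (Cdk1, Mcm3 and Mcm5) and a CHR word in 3 (Cdk1, Mki67 and Top2a). A match describes letters in this window only and does not show that a factor binds there.

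The wider cell cycle machinery showed the same split by strand class. Lists of 102 genes covered licensing and origin firing, DNA synthesis, G1 control, S and G2 to M control, chromosome condensation and spindle, and the cyclin kinase inhibitors, the 9 cell cycle genes above among them. Of 85 with enough exonic length for the level test, 52 were above 1 TPM, against 22.8% of all genes tested, and 0 below. Of the 45 without opposite-strand exons that were tested in replicate 3, 42.2% (19) were lower and 0 higher. Of all genes of that class 22% and 0.817% were, and 43 of the 45 had their lowest level in that library. The 45 include the 7 genes reported above, 5 of them called lower, so the lists are not independent of those genes. Of the 24 with opposite-strand exons, 1 was lower (Ccnd2, cyclin D2, -1.21) and 1 higher (Cdk6, a G1 kinase, 0.90). Their median CV was 18.1% against 51.7% in the first class. The classes differed in level too, with a median of 8.34 TPM over the 30 listed genes with opposite-strand exons and 2.06 TPM over the 72 without. With scaling over genes without opposite-strand exons, 4 of the 45 were lower (Mcm3, Prim1, Smc2 and Top2a) and 14 of the 24 higher. Under that scaling 1.7% of all genes tested were lower and 40.6% higher. All tested genes with opposite-strand exons then had a median of 0.96. The list counts that follow therefore hold for TMM scaling over all genes, unless the second scaling is named.

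Licensing factors, which load and start the replicative helicase, gave 7 of 15 lower in replicate 3 and 0 higher (median -1.32). Of all genes 12.4% were lower and 2.79% higher. All 7 were among the 9 tested without opposite-strand exons, where 22% of all genes of that class were lower. With the second scaling 1 was lower and 3 higher (median -0.49), where 1.7% and 40.6% of all genes were. Besides Mcm3 and Mcm5, the genes lower under the first scaling were the helicase subunits Mcm2 (-2.12), Mcm4 (-1.40) and Mcm6 (-1.68), the initiation factor Mcm10 (-2.67) and Dbf4 (-1.56), the activating subunit of the Cdc7 kinase. The highest levels of the list were those of Gins2, a subunit of the GINS complex of the helicase, at 232 ± 11.4 TPM, Mcm7 at 20.1 ± 1.38 and Gmnn, the licensing inhibitor geminin, at 12.5 ± 6.86 (SD, n = 3). Gins2 and Mcm7 have opposite-strand exons and were not called in replicate 3. Mcm7, the MCM2-7 subunit whose exons overlap other genes (Cops6 and Ap4m1), stood at 19.9, 18.8 and 21.5 TPM in replicates 1, 3 and 4, beside the 5 other subunits that were called lower under this scaling.

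For DNA synthesis, 3 of 13 were lower in replicate 3 and 0 higher (median -0.80), where 12.4% of all genes were lower and 2.79% higher. Of the 9 without opposite-strand exons 3 were lower, where 22% of all genes of that class were, and of the 4 with them 0 were lower. With the second scaling 1 of the 13 was lower and 2 higher (median 0.03). The 3 were Pcna, Prim1 (-3.66), the catalytic primase subunit, and Rpa1 (-2.23), the large subunit of the single-strand binding protein RPA. Tk1, thymidine kinase, led the list at 35.3 ± 0.647 TPM (SD, n = 3), followed by Pcna. Among chromosome and spindle genes 7 of 19 were lower and 0 higher (median -1.22), where 12.4% and 2.79% of all genes were. With the second scaling 2 were lower and 3 higher (median -0.39). The 7 lower under the first scaling were among the 15 tested without opposite-strand exons, where 22% of all genes of that class were lower. With Mki67 and Top2a these were the condensin subunits Smc2 (-1.98) and Smc4 (-1.30), the spindle motor Kif11 (-1.67), the spindle assembly factor Tpx2 (-1.71) and Incenp (-1.05), a subunit of the chromosomal passenger complex. The highest of the list was Kif20a, a kinesin of cytokinesis with opposite-strand exons, at 116 ± 4.17 TPM, followed by Incenp at 25.0 ± 11.7 and Smc4 at 17.7 ± 8.35.

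In G1 control 2 of 11 were lower, Ccnd2 and the E2F partner Tfdp1 (-1.90), and 1 higher, Cdk6 (median -0.19), not far from the 12.4% lower of all genes, against 0 and 4 with the second scaling (median 0.64). After Cdk4, the highest were Ccne2, cyclin E2, at 64.5 ± 2.48 TPM and Myc at 13.4 ± 6.22. Of 10 genes of S and G2 to M control 0 were called in replicate 3 by edgeR (median -0.56), where 1 had an unadjusted p under 0.05, and 0 of the 2 with an adjusted p were called by DESeq2's Wald test. Of this list 1 was lower with all 4 replicates (Cdc25a, named after its value was seen), and 2, Ccna2 and Pkmyt1, were higher with the second scaling (median 0.27). After Ccna2 the highest were the Cdk1-inhibiting kinase Pkmyt1 at 58.5 ± 3.08 TPM and the Cdk-binding Cks2 at 8.52 ± 3.74. Of the 7 cyclin kinase inhibitors 1 had enough counts to be tested, Cdkn1a (p21), which was lower under this scaling (-1.56) at a mean of 8.39 ± 4.44 TPM, and Cdkn2d and Cdkn1b followed at 1.46 ± 1.06 and 1.05 ± 0.788. Over all genes tested the median was -0.11.

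**Figure D4:**
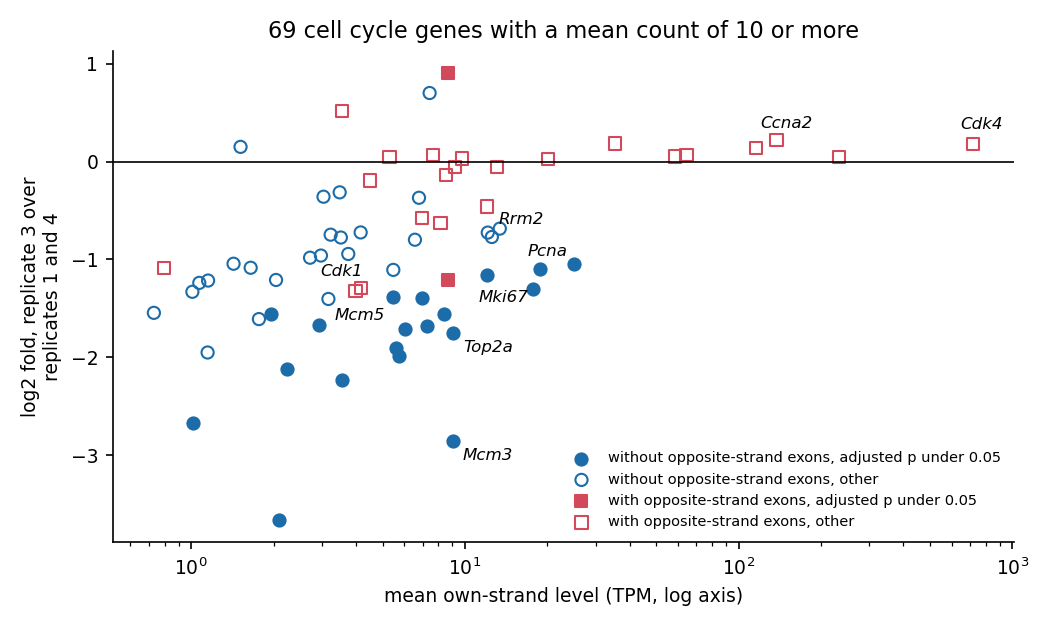
Log2 fold of replicate 3 over replicates 1 and 4 against the mean own-strand level in TPM (log axis) for the 69 tested cell cycle genes, as circles (no opposite-strand exons) and squares (opposite-strand exons), filled where called. Under TMM scaling over all genes the squares lie mostly near 0 and hold every level above that of Incenp (25.0 TPM), and the filled circles lie between -1.05 and -3.66. With scaling over genes without opposite-strand exons 4 of the circles would be called lower and 14 of the squares higher. Of all genes tested 1.7% were lower and 40.6% higher under that scaling.

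The exosome gave a comparison list for Exosc9. Of its 15 genes 11 were long enough for the level test and 9 of these were above 1 TPM, against 22.8% of all genes tested. By mean level Exosc9 led the list, ahead of Exosc3 (too short for that test) at 61.6 ± 3.28 TPM and Exosc8 at 14.4 ± 4.32 (SD, n = 3), all 3 with opposite-strand exons. The mean of Exosc9 was 5.23-fold that of Exosc3. In replicate 3, the nuclease subunits Exosc10 (-4.07) and Dis3 (-2.35) were lower, among 11 tested, and 0 were higher (median -0.36), a share not far from the 12.4% lower of all genes. With the second scaling Exosc10 was lower and Exosc3 and Exosc9 were higher (median 0.47).

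Overlapping pairs of the listed cell cycle genes, Ccna2 and Cdk4 included, varied in which strand had more counts. In 35 pairs of 30 cell cycle genes the cell cycle gene was the higher per kb in 9, the gene on the other strand in 22, and 4 were undecided, a called share of 88.6%, close to the 88.2% over all pairs. Gins2 was 9.48-fold above Gse1 and Tk1 was 2.03-fold above Afmid, while Pkmyt1 had 0.244 of the density of Paqr4 and Mcm7 had 0.126 of that of Ap4m1 and 0.276 of that of Cops6. Ccne2 stood at 1.46 times Ints8, and Kif20a at 0.804 times Cdc23 (adjusted p = 0.170, edgeR's quasi-likelihood test).

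The genes with levels most like Ccna2, by the root mean square difference of log2(TPM + 0.1) over the 3 libraries among 6921 genes, were Bbip1 (0.05), Gm12592 (0.05) and Adat2 (0.05). Their levels were 137, 145.5 and 141 TPM for Bbip1, 135, 133 and 134 for Gm12592 and 131, 138 and 140.4 for Adat2 in replicates 1, 3 and 4. All 3 have opposite-strand exons, to Pdcd4 and Shoc2, to Patz1 and Pik3ip1, and to Pex3. Such exons were common, in 3862 of the 6922 genes of the single-library tests. Among the tested cell cycle genes, only genes with them stood above Incenp (25.0 TPM). Having them at a level near that of Ccna2 therefore does not set these 3 genes apart.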

How the data were processed

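Fragments per gene were counted by the authors with featureCounts 1.4.6-p4 on STAR alignments to mm10 with the GENCODE vM13 exons, with both mates mapped and strand setting 1, per the file headers. The version of STAR is not given in the sources used. The deposited values are raw counts, and TPM was computed here from them and the exonic lengths in the files. Symbols came from GENCODE vM21 by identifier, and 224 of 50600 identifiers had none. Opposite-strand exons were those sharing at least 1 base with an exon on the other strand (4597 pairs).

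Pairs (summed count of 10 or more, with a library term), levels against 1 TPM (expected count of 10 or more at that level) and single libraries (mean count of 10 or more, TMM scaling) went through edgeR 4.0.16 (R 4.3.3, quasi-likelihood tests) on replicates 1, 3 and 4, with Benjamini-Hochberg adjustment over all features at 0.05. Alternatives used limma 3.58.1, DESeq2 1.42.0, other filters and scalings, all 4 replicates and each replicate left out. The edgeR and limma tests were tried on simulated counts first (the single-library test for replicate 3 only). DESeq2's Wald test and the alternative scalings were not. Intervals (exact for ratios, Wilson for shares) and the floor of 3 counts cover counting error only, since the fragments carry no molecular identifiers and are not independent molecules. Replicate 2 had 5016 counts and entered no main test. Named were all 10 genes, every gene overlapping one of them, the 3 highest genes of each list, list genes called in a single library and the 3 genes most like Ccna2; other names among the pairs and the marker genes at 0 were chosen after their values were seen. Some of the genes so chosen are not reported here. The genes and lists were chosen with earlier results of these data known. Python 3.11.15 with pandas 2.3.3, numpy 2.4.6 and scipy 1.17.1 was used.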

Additional observations from a re-analysis of the deposited data

Results flagged for a closer look

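In replicate 2 the levels of Exosc9 (196 TPM), Mki67 (122 TPM) and Cdk4 (94.5 TPM) lay far from those of the other 3 libraries, farther than Dixon's 95% critical value for 4 samples allows, which chance passes in about 1 in 20 groups. They rest on 3, 4 and 1 counts of the 5016 in that library. The 4 Mki67 counts of replicate 2, a library the comparisons did not use, lie above the floor of 3 counts.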

How the results depend on the processing

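The pair ratios were stable under the alternatives run: Exosc9 over Ccna2 stayed between 1.20 and 1.25 on the log2 scale and Cdk4 over Tspan31 between 4.77 and 4.96, both called each time. Genes above 1 TPM numbered 5971 at a mean count of at least 10, 7116 with no filter and 1716 to 3143 with 1 replicate left out, against 3963, and genes below it 24 at that filter and 191 to 4047 with 1 left out, against 9397. With 1 replicate left out 5 to 7 of the 10 genes were above 1 TPM, in part because fewer passed the filter on expected counts. In replicate 3 the 858 lower genes became 379 with DESeq2 size factors, 36 with DESeq2's Wald test (3433 of the 6922 genes had an adjusted p there), 560 with no filter and 118 with scaling over genes without opposite-strand exons. The 193 higher ones became 20 with the Wald test, 2809 with that scaling and 50 with all 4 replicates. The 5 of the 10 genes called lower became 3 (size factors, no filter or all 4 replicates) or 2 (Wald test or that scaling), and the 20 lower cell cycle genes became 11 with size factors, 2 with the Wald test (32 of 69 with an adjusted p) and 4 with that scaling, the 1 higher one 0 and 14 with the last 2. Higher genes in replicate 1 went from 2 to 1 with no filter, lower ones in replicate 4 from 2 to 0 with the Wald test or that scaling, and higher ones there from 1 to 0 under all 5 alternatives. The cause of these moves was not tested. With scaling over genes without opposite-strand exons, the sign changed for Rrm2 in replicate 3 (0.11) and for Pcna (-0.14) and Cdk1 (-0.26) in replicate 1, none of them called. With all 4 replicates it changed for Exosc9 in replicates 1 (0.15) and 4 (0.14) and for Cdk4 in replicate 1 (0.13). Cdk4 in replicate 4, at 0.02, became -0.0195 with size factors, -0.0195 with the Wald test, -0.0570 with no filter and -0.47 with that scaling. Pcna and Mcm5 in replicate 3 had adjusted p of 0.0770 and 0.0920 in edgeR with DESeq2 size factors, so their calls are borderline. Leaving a library out of a single-library comparison leaves 1 against 1, which gives no test: replicate 3 then differed in log2 CPM by -3.10 from replicate 1 and by -2.90 from replicate 4 for Mcm3. No paired analysis was possible because the 4 libraries form 1 group. Counts of 8 to 85 in Mcm3, and of 10 to 24 in Cdk1, limit how finely these genes can be compared.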

Other observations

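A small gene of 115 bp, Gm26394, lies on the opposite strand within an intron of Top2a (chromosome 11, 98999508 to 98999622, mm10) and shares no exonic base with it. It had 21, 22 and 23 counts in replicates 1, 3 and 4, while Top2a had 171, 39 and 135. Gm45240, on the opposite strand within Mki67, had 0, 0 and 2 counts, and Gm23451, on the strand of Top2a, had 0 in all 3. Both genes and Gm26394 were chosen after their values were seen.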
